A study of Mus musculus with 6 samples.

Results

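The genes described here are the membrane and intracellular core of the Hedgehog pathway, together with Gas1. The members were chosen by gene name: Gas1, Ptch1, Smo, Gli1, Gli2, Gli3, Sufu, Boc and Cdon. Of these 9 genes, 8 had a row among the 11773 genes of the deposited gene table, and 11 transcripts of these 8 genes were among the 22330 transcripts of the transcript table. Gli1 is not analysed here. Polyadenylated RNA was measured in 6 libraries of 2H11 cells, a mouse line that the labels call endothelial, of strain C3H/HeJ, with axillary lymph node and vascular epithelium given as the source. After starvation, 3 libraries came from cells kept for 48 h with bone morphogenetic protein 4 (BMP4) plus palovarotene and 3 from cells kept for 48 h with BMP4 alone. Values given with palovarotene are from the first group, and values without it from cells given BMP4 alone. BMP4 is a secreted ligand that drives cartilage and bone formation, and palovarotene is a synthetic agonist of the retinoic acid receptor gamma. Every library thus received BMP4, there was no group without it and none with palovarotene alone, and the sources used here give no dose. No label states that the libraries of a group are from separate cultures; the p-values therefore reflect library-to-library spread, possibly technical in origin.

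Hedgehog ligands are secreted proteins that bind the receptor Ptch1, and ligand binding relieves the inhibition that Ptch1 places on Smo, a seven-pass membrane protein, at the primary cilium. Active Smo releases the GLI transcription factors from Sufu, and the GLI factors then act on target genes, of which Gli1 and Ptch1 themselves are the usual readouts. Gas1, Boc and Cdon are cell surface proteins that bind the ligand alongside Ptch1 and promote signalling in the mouse embryo. Gas1 was first known as a gene of growth-arrested fibroblasts.

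The 4 members that rose with palovarotene were the 3 co-receptor genes Gas1, Boc and Cdon and the gene of the signal transducer Smo. Boc and Gas1 changed most, with mean levels 3.72 and 2.82 times those of BMP4 alone, while Smo and Cdon each stood at 1.37 times. Ptch1, Gli2, Gli3 and Sufu did not pass the test, and no member fell by it (the lower members' smallest unadjusted p was 0.051, for Ptch1). The test was limma on log2(FPKM + 1) over the 11584 genes that averaged 0.5 FPKM or more, with a gene called at a Benjamini-Hochberg adjusted p below 0.05. FPKM are fragments scaled to transcript length and to the mapped fragments of the library, as computed by the authors. All 8 members with a row were tested. The 4 of 8 stand beside a background of 19.1% of tested genes called higher, 23.8% called lower and 43.0% called in either direction. Because the members were chosen with earlier results of these data known, these shares are a description and no test of the set. The groups did not overlap in 5 of the 8 members (4 higher, 1 lower), against 54.9% of tested genes. The median log2 fold change of the 8 members was 0.29, and that of all tested genes was -0.029.

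**Figure D1:**
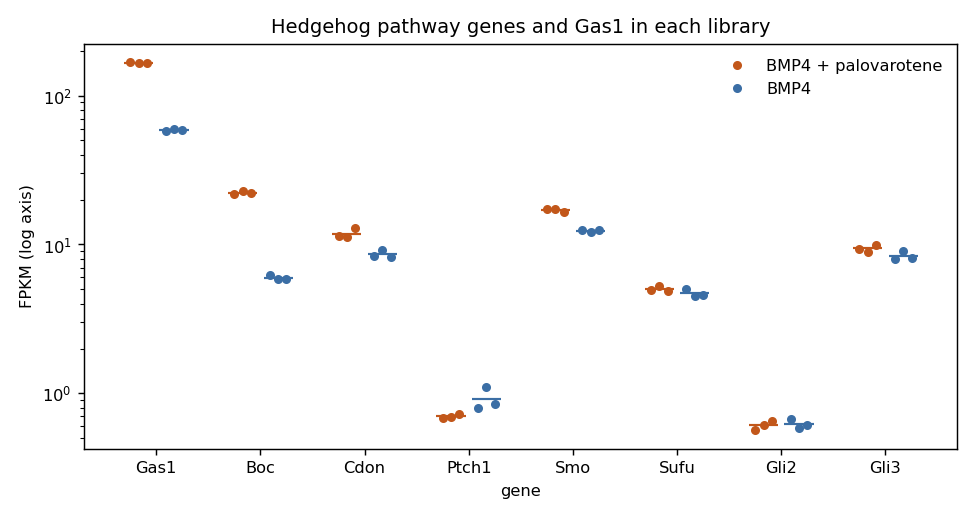
FPKM of the 8 members in each library on a log axis, with 1 point per library and a bar at the group mean; BMP4 + palovarotene stands left of BMP4. Gas1, Boc, Cdon and Smo lie higher in all 3 BMP4 + palovarotene libraries than in any BMP4 library, while Gli2, Gli3 and Sufu overlap.

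The sequences just upstream of 4 of these genes are printed as the windows in which motifs were searched: Gas1, Smo and Cdon rose, and Ptch1, the classical GLI target, did not pass the test. Boc, which also rose, had no window and was not searched. Each is the 250 bases before the RefSeq transcription start on the gene's own strand (GRCm38.p6), with every CG dinucleotide in capitals. The Gas1 window is chr13:60177536-60177785 on the minus strand, the Smo window chr6:29735247-29735496 on the plus strand, the Cdon window chr9:35451826-35452075 on the plus strand and the Ptch1 window chr13:63565736-63565985 on the minus strand.
Gas1: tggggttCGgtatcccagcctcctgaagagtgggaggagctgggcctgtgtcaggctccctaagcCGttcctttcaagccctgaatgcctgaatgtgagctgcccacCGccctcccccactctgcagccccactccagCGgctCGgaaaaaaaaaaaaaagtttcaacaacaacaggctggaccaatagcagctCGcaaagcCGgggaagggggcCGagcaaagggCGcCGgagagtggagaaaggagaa
Smo: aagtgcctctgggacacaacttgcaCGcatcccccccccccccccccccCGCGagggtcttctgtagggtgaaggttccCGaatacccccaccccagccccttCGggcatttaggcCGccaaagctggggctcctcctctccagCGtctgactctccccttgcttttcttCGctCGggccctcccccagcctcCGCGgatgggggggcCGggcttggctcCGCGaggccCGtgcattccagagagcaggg
Cdon: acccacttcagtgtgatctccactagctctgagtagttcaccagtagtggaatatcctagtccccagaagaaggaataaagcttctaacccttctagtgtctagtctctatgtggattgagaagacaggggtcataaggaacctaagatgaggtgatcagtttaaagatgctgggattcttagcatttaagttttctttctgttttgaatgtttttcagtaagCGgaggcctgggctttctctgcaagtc
Ptch1: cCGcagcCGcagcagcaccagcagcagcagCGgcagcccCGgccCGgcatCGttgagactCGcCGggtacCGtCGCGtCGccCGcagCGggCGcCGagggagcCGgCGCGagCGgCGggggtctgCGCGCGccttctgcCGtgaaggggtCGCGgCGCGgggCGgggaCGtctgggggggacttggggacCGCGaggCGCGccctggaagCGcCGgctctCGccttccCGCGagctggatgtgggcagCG

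Ptch1 had 41 CG dinucleotides in its window and a G+C content of 78.4%, above 98.1% of the 32851 RefSeq windows of this length. Smo had 15 and 68.4%, Gas1 10 and 58.8%, and Cdon 1 and 42.8%, the last with a G+C content above that of 17.9% of windows. The median window had 6 CG dinucleotides and a G+C content of 52.4%. The windows of Gas1 and Smo lie outside the gene as listed, while those of Cdon and Ptch1 lie inside it, so the 4 are not all windows at the outermost start of a gene. The Cdon window ends just before its listed transcript, at 35452076, whereas the gene is listed from 35421128. The RefSeq start of Ptch1, at 63565735, lies upstream of its listed transcript, which begins at 63564535 on the minus strand, and inside the gene, listed up to 63573598. The GLI consensus GACCACCCA was searched on both strands and matched none of the 7 members with a window, against 0.225% of all windows. Direct repeats of AGGTCA spaced by 5 or by 2 bases, a motif of retinoic acid receptors, matched none of the 7 on either strand, and each spacing matched 0.00913% of all windows. No match says only that these letters are not in this window.

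Gas1, whose product is attached to the outer cell membrane and binds Hedgehog ligands, was the most abundant member in both groups. It was at 167, 166 and 165 FPKM in the BMP4 + palovarotene libraries and at 58.0, 59.6 and 58.7 FPKM in the BMP4 libraries. The 3 values of each group lay close together, and the groups were far apart. The means were 166 ± 1.23 FPKM with palovarotene and 58.8 ± 0.772 FPKM without (SD, n = 3 each), which on the log2 scale was a rise of 1.48 (SE 0.0342, limma adjusted p = 3.62e-07). On this scale Gas1 ranked at 110 of 11584 genes from the largest rise, and its mean level was above that of 97.2% of listed genes. Gas1 lies on chromosome 13, 60174405 to 60177365 on the minus strand (GRCm38), and its listed transcript has 1 exon of 2961 bases in the GENCODE vM21 annotation. A long noncoding RNA gene, Gm48488, overlaps its 5-prime part on the opposite strand. The libraries were strand-specific per the labels' protocols, but no source used here says whether the counting used the strand.

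The genes whose profile over the 6 libraries lay nearest to that of Gas1 were S1pr1, Fbxo32, Cntfr, St6gal1 and S100a16, by the Euclidean distance of log2(FPKM + 1) centred on the BMP4 mean, in a search of 10791 genes that averaged 1 FPKM or more. Their distances were 0.0462 to 0.109, and their log2 fold changes were 1.46 to 1.52. This is a description of these libraries, since with 2 groups a profile is mostly the difference between them.

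Boc, which encodes an immunoglobulin and fibronectin repeat co-receptor of the Hedgehog ligands, had the largest change among the members. It was at 21.7, 22.9 and 22.0 FPKM with palovarotene and at 6.27, 5.86 and 5.83 FPKM without. The libraries of each group lay close together, far from those of the other group. Its log2 fold change was 1.73 (SE 0.0488, limma adjusted p = 9.21e-07), which ranked at 62 of 11584 genes. Boc lies on chromosome 16, 44485049 to 44558897 on the minus strand, and its only listed transcript has 19 exons and 4451 exonic bases. Its gene and transcript values were the same in every library.

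Cdon, the close relative of Boc with the same kind of domains, rose less. Its values were 11.4, 11.2 and 12.9 FPKM with palovarotene and 8.30, 9.24 and 8.26 FPKM without. The groups did not overlap, but they lay closer together than for Boc or Gas1. Its log2 fold change was 0.42 (SE 0.071, limma adjusted p = 0.00337). Cdon lies on chromosome 9, 35421128 to 35507652 on the plus strand.

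Summed per library, Gas1, Boc and Cdon were at 199 to 200.1 FPKM with palovarotene and at 72.6 to 74.7 FPKM without. Gas1 made up 82.5% to 83.4% of that sum with palovarotene and 79.8% to 80.7% without. The share of Boc was 10.9% to 11.5% with palovarotene and 7.84% to 8.64% without, and that of Cdon was 5.57% to 6.46% with palovarotene and 11.3% to 12.4% without. The order of the 2 related genes thus turned round: the ratio of Boc to Cdon within a library was 1.90, 2.06 and 1.71 with palovarotene and 0.756, 0.634 and 0.705 without. That difference of 1.44 on the log2 scale did not overlap between groups, and its exact two-sided permutation p was 0.1, the smallest that 3 libraries against 3 can give.

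**Figure D2:**
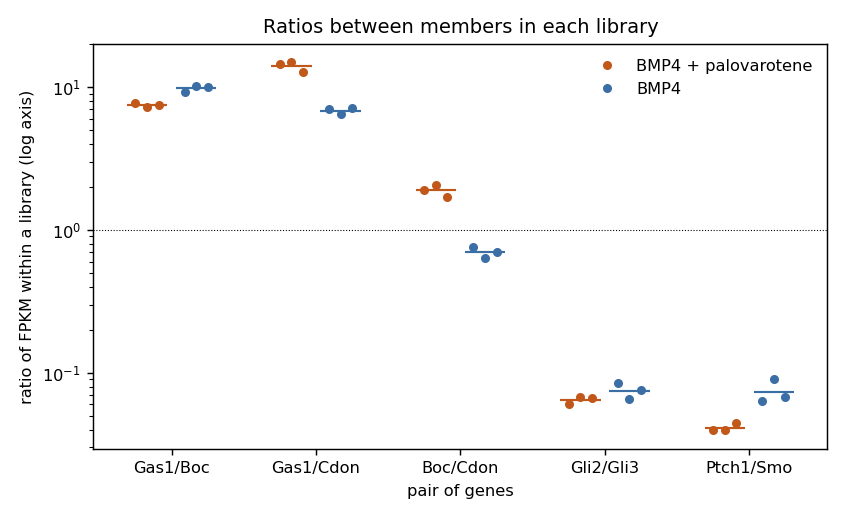
Ratio of the FPKM of 2 members within each library, on a log axis, for the 5 pairs compared; points are libraries, bars are group means, and the dotted line marks equal levels. The ratio of Boc to Cdon is above 1 in all BMP4 + palovarotene libraries and below 1 in all BMP4 libraries.

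The other 4 ratios were compared in the same way, and over the 5 pairs the smallest adjusted p was 0.125. Gas1 over Cdon was 14.1 ± 1.15 with palovarotene and 6.85 ± 0.354 without (SD, n = 3 each). Gas1 over Boc was 7.46 ± 0.224 with palovarotene and 9.84 ± 0.504 without, with each palovarotene value below each BMP4 value. Ptch1 over Smo was 0.0412 ± 0.00285 with palovarotene and 0.0738 ± 0.0146 without. Each of these had an exact permutation p of 0.1. Gli2 over Gli3 overlapped between the groups (0.0605 to 0.068 with palovarotene, 0.0652 to 0.0843 without; exact permutation p = 0.3).

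Ptch1, the receptor and a target of its own pathway, was low in all libraries, with a mean above that of 6.11% of listed genes. It was at 0.687, 0.692 and 0.732 FPKM with palovarotene and at 0.796, 1.11 and 0.844 FPKM without. All 3 BMP4 + palovarotene values were below all 3 BMP4 values, as in 30.6% of tested genes, but the difference did not pass the test. The log2 fold change was -0.17, with a 95% interval of -0.33 to 0.00 (limma adjusted p = 0.0996), and this scale understates changes of genes near 1 FPKM: with a pseudocount of 0.1 it was -0.33 (adjusted p = 0.0965). Without BMP4 replicate 2, the highest library, it was -0.10 (adjusted p = 0.203).

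Smo, the transducer that Ptch1 holds in check, rose by a modest and even amount. It was at 17.4, 17.4 and 16.4 FPKM with palovarotene and at 12.5, 12.2 and 12.5 FPKM without, with no overlap. Its log2 fold change was 0.43 (SE 0.0443, limma adjusted p = 0.000332). By gene values, Smo (chromosome 6, 29735503 to 29761365, plus strand) came after Gas1 and Boc in level with palovarotene and after Gas1 alone without.

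**Figure D3:**
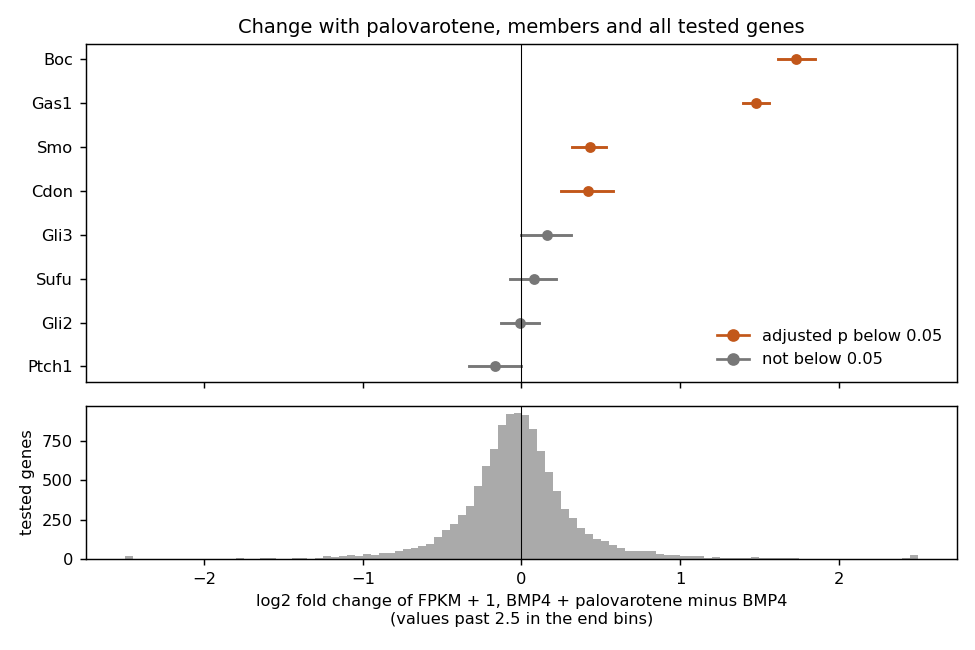
Upper panel, log2 fold change of each member with its 95% interval from limma; lower panel, the number of tested genes at each log2 fold change. Boc at 1.73 and Gas1 at 1.48 lie in the upper tail of all genes, Smo and Cdon at 0.43 and 0.42 lie above most, the intervals of Ptch1, Gli2 and Sufu include 0, and that of Gli3 ends next to it.

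Sufu, the cytoplasmic inhibitor that binds the GLI factors, was at 4.91, 5.27 and 4.87 FPKM with palovarotene and at 5.05, 4.48 and 4.57 FPKM without, with overlapping groups. Its log2 fold change was 0.08, with a 95% interval of -0.07 to 0.22 (limma adjusted p = 0.342). Gli3, whose product serves mainly as the repressor of the pathway when ligand is absent, was at 9.33, 8.96 and 9.94 FPKM with palovarotene and at 7.98, 9.01 and 8.05 FPKM without. Its log2 fold change of 0.16 had a 95% interval of 0.00 to 0.31, with the lower end just above 0 (limma unadjusted p = 0.0468, adjusted p = 0.0932). Without BMP4 replicate 2, the highest BMP4 library for Gli3 as well, the value was 0.21 and passed the test (adjusted p = 0.0368). Gli2, the main activator of the pathway in the mouse, was at 0.564, 0.609 and 0.657 FPKM with palovarotene and at 0.673, 0.587 and 0.609 FPKM without, just above the level required for the test. Its log2 fold change was -0.01, with a 95% interval of -0.13 to 0.11 (limma adjusted p = 0.870). For Sufu and Gli3 the intervals leave out a change as large as that of Smo, on the log2(FPKM + 1) scale, although a p that misses the threshold does not show equal levels. Gli2 was below 1 FPKM, where this scale understates changes, so its interval cannot be set against the change of Smo.

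By mean FPKM, the order of the members with palovarotene was Gas1, Boc, Smo, Cdon, Gli3, Sufu, Ptch1 and Gli2, with no overlap between neighbours. With BMP4 alone it was Gas1, Smo, Cdon, Gli3, Boc, Sufu, Ptch1 and Gli2, where only Cdon (8.26 to 9.24 FPKM) and Gli3 (7.98 to 9.01 FPKM) overlapped. Boc was thus the one gene that moved by more than 1 place: it was the second with palovarotene and the fifth with BMP4 alone. This order holds for the gene values only. By listed transcript, Smo had a mean of 25.2 FPKM with palovarotene, above Boc at 22.2 FPKM. With BMP4 alone, the longest Sufu transcript had a mean of 6.41 FPKM, above Boc at 5.98 FPKM.

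All 11 listed transcripts of the members were tested, and 4 rose, the single listed transcripts of Gas1, Boc, Smo and Cdon, where 6.49% of 21101 tested transcripts were called higher, 6.42% lower and 12.9% in either direction. The gene and transcript tables come from the same libraries and are not independent. The Cdon transcript had a log2 fold change of 0.42 (limma adjusted p = 0.0297), a call lost without BMP4 replicate 1 (adjusted p = 0.0742), BMP4 replicate 3 (0.0958) or BMP4 + palovarotene replicate 1 (0.0911), 2 (0.0671) or 3 (0.091). The 12-exon Smo transcript was at 25.7, 25.6 and 24.2 FPKM with palovarotene and at 18.4, 18.0 and 18.4 FPKM without (log2 fold change 0.44, adjusted p = 0.00358). The gene value of Smo was 0.677 to 0.680 times that of its transcript in every library, so the levels differ between the tables while the change does not.

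The only listed transcript of Ptch1, with 24 exons, was at 0.873, 0.873 and 0.774 FPKM with palovarotene and at 1.5, 0.827 and 1.67 FPKM without. BMP4 replicate 2 was the lowest BMP4 library for this transcript but the highest for the gene. The gene value was 0.506 to 1.34 times the transcript value across the libraries, and the cause was not tested. The log2 fold change of the Ptch1 transcript was -0.32 with a 95% interval of -0.75 to 0.10 (limma adjusted p = 0.304), so neither table gave a call for Ptch1.

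Only Sufu and Gli3 had 2 or more tested transcripts. The longest Sufu transcript, with 4522 exonic bases, made up 73.5% to 81.3% of the summed listed Sufu transcripts with palovarotene and 78.1% to 87.6% without, with overlap. The shortest, with 1747 exonic bases, was at 0.506, 0.959 and 0.920 FPKM with palovarotene and at 0.202, 0.495 and 0.303 FPKM without, with no overlap. Its log2 fold change of 0.42 did not pass the test (limma adjusted p = 0.155). The longer Gli3 transcript, with 8170 exonic bases, made up 93.8% to 95% of the listed Gli3 transcripts with palovarotene and 93.6% to 96.6% without. The test of unequal change between transcripts of a gene (limma diffSplice, adjusted over 5240 genes) called neither, at an adjusted p of 0.354 for Sufu and 0.988 for Gli3, where 3.74% of genes were called.

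**Figure D4:**
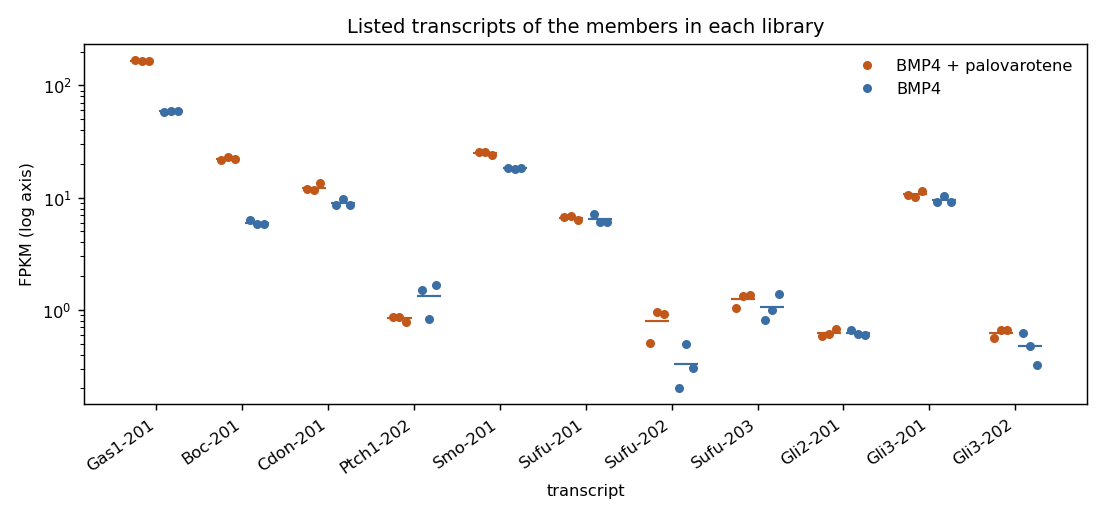
FPKM of the 11 listed transcripts of the members in each library on a log axis, 1 point per library with a bar at the group mean. The 4 transcripts that rose are separated between groups, as is the shortest Sufu transcript, which did not pass the test. The Ptch1 transcript and the minor transcripts of Sufu and Gli3 spread widely, with BMP4 values of the Ptch1 transcript at 0.827 to 1.67 FPKM.

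The rest of the pathway moved in both directions, and the counts below are to be read against the 43.0% of all tested genes that were called. Of 9 genes of Hedgehog ligands and their release, 4 had a row and were tested, and 2 rose. Dhh, the gene of the ligand desert hedgehog, was at 2.06, 2.34 and 2.27 FPKM with palovarotene and at 1.77, 1.31 and 1.71 FPKM without (log2 fold change 0.31, limma adjusted p = 0.021), a call lost without BMP4 + palovarotene replicate 2 (adjusted p = 0.0658) or 3 (0.0648). Scube3, a gene of a secreted protein whose family helps to release the ligand, was at 1.62 ± 0.0412 FPKM with palovarotene and 0.236 ± 0.0183 FPKM without (SD, n = 3 each; log2 fold change 1.08, limma adjusted p = 5.12e-06), and is named after its values were seen. Disp1, which exports the ligand, was at 8.11 ± 0.159 FPKM with palovarotene and 8.06 ± 0.563 FPKM without and did not pass the test. Shh and Ihh are not analysed here.

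Of 12 other surface modulators, 6 were tested, of which 1 rose and 3 fell. Neo1, the gene of neogenin, which can bind Cdon, stood at 1.46 times its BMP4 mean (log2 fold change 0.52, limma adjusted p = 0.000425). Gpr161, a ciliary receptor that restrains the pathway, fell by 0.28 on the log2 scale and the glypican gene Gpc4 by 0.42. Of 30 genes that relay the signal to GLI, 5 rose and 6 fell, and their median log2 fold change was 0.02. Dyrk2, a kinase gene, was at 9.47 ± 0.499 FPKM with palovarotene and 5.75 ± 0.172 FPKM without (SD, n = 3 each), and the casein kinase genes Csnk1d and Csnk1e rose by 0.27 and 0.23. Ankmy2 rose by 0.19 (limma adjusted p = 0.0346), a call that did not survive leaving out any single library except BMP4 + palovarotene replicate 3 (adjusted p otherwise 0.0592 to 0.112). Ulk3, a kinase gene, fell to 4.24 ± 0.535 FPKM with palovarotene, against 7.53 ± 0.471 FPKM without, Arrb2 fell by 0.50 and Evc2, whose product binds Smo at the ciliary base, by 0.36. Rab23 fell by 0.42 (adjusted p = 0.0398), but the call was lost without any one of the 3 BMP4 + palovarotene libraries (adjusted p of 0.0572 to 0.115) and with median-ratio scaling (0.0501). Without BMP4 replicate 3, the highest library for Rab23, its log2 fold change was -0.27 (adjusted p = 0.0408).

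Among 12 other genes known as Hedgehog targets in some tissues, 8 were tested, of which 4 rose and 3 fell. Foxf1, a forkhead gene of mesenchyme, was at 17.2, 17.3 and 16.6 FPKM with palovarotene and at 4.28, 5.23 and 4.17 FPKM without (log2 fold change 1.70, limma adjusted p = 7.2e-06). Its relative Foxf2 went the other way, at 6.48, 6.10 and 6.10 FPKM with palovarotene and 11.3, 10.6 and 10.3 FPKM without (-0.70, adjusted p = 7.85e-05). Bcl2, an inhibitor of cell death, rose by 0.80, to 2.32 times its BMP4 mean. Ccnd2 and Nr2f2 rose by 0.35 and 0.42, while Ccnd1, the gene of cyclin D1, fell to 6.71 ± 0.319 FPKM, against 14.2 ± 0.196 FPKM without palovarotene. Foxl1 also fell, at 0.325 ± 0.0524 FPKM with palovarotene and 0.97 ± 0.195 FPKM without (SD, n = 3 each), and is named after its values were seen. Its log2 fold change was -0.57 (limma adjusted p = 0.00159), on a scale that understates changes of genes near 1 FPKM. Hhip, a target that binds the ligand and feeds back on it, is not analysed here. Many of these genes respond to other pathways too, so their counts are not a measure of GLI activity.

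Of 44 genes of the primary cilium, the organelle at which Smo acts, 43 could be tested; 15 fell and 2 rose, around a median of -0.10 on the log2 scale. Of all tested genes, 23.8% were called lower and 19.1% higher, around a median of -0.029. The number of cilium genes that fell was 8 without BMP4 + palovarotene replicate 1, 10 without its replicate 3 and 9 with the fit blocked by replicate number. In these settings 2144, 2089 and 2106 of all tested genes were called lower, in place of 2759. Leaving out any other library gave 12 to 14 cilium genes that fell. Rpgrip1l, a gene of the transition zone at the base of the cilium, had the largest fall in this list, at 2.2, 2.1 and 2.27 FPKM with palovarotene and 5.26, 5.51 and 5.07 FPKM without (-0.98, limma adjusted p = 1.62e-05). Bbs4 and Bbs2, of the Bardet-Biedl complex, fell by 0.69 and 0.52, to 0.514 and 0.656 times their BMP4 means. Ift74, of the transport particle, fell by 0.47, whereas Tmem216 and Traf3ip1 rose by 0.46 and 0.40.

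Gas1 is related in structure to the receptors of the GDNF family, of which Gfra1, Gfra2 and Gfra3 are not analysed here. Of 10 genes of that family 4 were tested and 1 rose, the ligand gene Gdnf, at 4.37, 4.52 and 4.78 FPKM with palovarotene and 1.28, 1.40 and 1.28 FPKM without (log2 fold change 1.26, limma adjusted p = 5.51e-06). Ret, the kinase that these receptors engage, was at 1.23 ± 0.0936 FPKM with palovarotene and 1.33 ± 0.156 FPKM without. Gfra4 missed the threshold (limma adjusted p = 0.0535), and the number of changed genes in this list was 2 without BMP4 replicate 1 or without BMP4 + palovarotene replicate 3. Of 7 other genes named for growth arrest 6 were tested; 2 fell and 4 did not pass the test. Gas6, the ligand gene of the Axl receptor kinases, was at 10.7, 10.3 and 9.53 FPKM with palovarotene and 71.9, 61.3 and 66.6 FPKM without (-2.60, adjusted p = 7.52e-07). Gas2 fell by 0.40, to 0.615 times its BMP4 mean. Gas2l3 and Gas7 spread widely within a group: Gas7 was at 6.28 to 6.61 FPKM with palovarotene and at 0.897, 5.89 and 4.93 FPKM without.

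**Figure D5:**
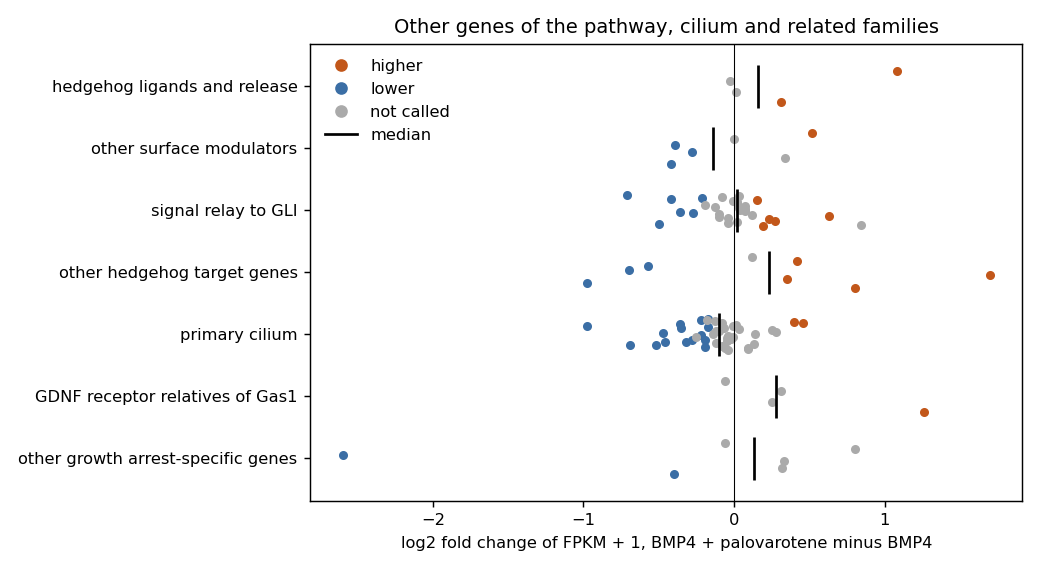
Log2 fold change of each tested gene in 7 lists around the pathway, with 1 point per gene coloured by its call and a bar at the list's median. Points lie on both sides of 0 in the lists of surface modulators, relay genes, targets and cilium, with 15 lower and 2 higher among the cilium genes.

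The libraries summed to between 244119 and 251290 FPKM over the listed genes, and read depth is unknown. Pearson's r of log2(FPKM + 1) across tested genes, which are not independent, was at least 0.988 within a group and 0.954 to 0.959 between groups. Of 16 endothelial markers, 5 had a row (Tek, Vwf, Flt1, Flt4 and Egfl7), and they summed to 6.15 to 6.40 FPKM with palovarotene and 8.93 to 9.51 FPKM without, with 3 lower, 1 higher and 1 not called. Vwf was at 0.0258 ± 0.00298 FPKM with palovarotene and 1.17 ± 0.126 FPKM without (SD, n = 3 each), Flt1 and Tek stood at 0.322 and 0.375 times their BMP4 means, and Flt4 at 2.87 times. Vwf is named outside the rule for named genes, as its mean over all libraries was below 1 FPKM. The other 11, with Kdr, Cdh5 and Pecam1 among them, are not analysed here. All 10 fibroblast markers had a row, with a sum of 1376 to 1441 FPKM with palovarotene and 1308 to 1428 FPKM without, but 3 of them rose and 5 fell. Fap was at 7.93 ± 0.285 FPKM with palovarotene and 0.583 ± 0.0338 FPKM without (SD, n = 3 each), and Pdgfra stood at 3.03 times its BMP4 mean, whereas Lum, Vim and Pdgfrb stood at 0.35, 0.579 and 0.65 times theirs. The 2 listed leukocyte markers of 7 summed to 4.19 to 4.43 FPKM with palovarotene and 6.34 to 7.79 FPKM without, and the 2 listed epithelial keratin genes of 7 markers, of which Krt19 rose and Krt14 fell, to 34.1 to 35 FPKM with palovarotene and 41.2 to 43.9 FPKM without. The part of such shifts in the members' changes was not tested, and in bulk RNA a change in the number of cells of a type and a change in RNA per cell cannot be told apart.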

How the data were processed

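PolyA-selected RNA of 6 libraries was sequenced as strand-specific paired ends, per the labels' protocols. FastQC, cutadapt, HISAT2 and StringTie and the build GRCm38 are named, per the submitters' processing notes, with no versions or roles. The authors deposited FPKM per gene and per transcript; read counts are not given, so depth and counting error are unknown. All rows are typed protein-coding, and in every row the higher group mean is at least 0.5 FPKM.

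From these values, log2(FPKM + 1) was tested with limma 3.58.1 (R 4.3.3) with a mean-variance trend, on rows averaging 0.5 FPKM or more, with Benjamini-Hochberg adjustment over all tested rows and a threshold of 0.05. Tested on simulated data, it recovered most but not all changed genes, fewer changed transcripts than genes at each fold simulated, and a minority of genes with changed transcript usage. Transcript usage was tested with limma's diffSplice, and ratios of members with an exact two-sided permutation test. Members and gene lists were chosen with earlier results of these data known. In each list, up to 4 called genes per direction with a mean of at least 1 FPKM were eligible to be named, by size of change; those named outside this rule are marked or did not pass the test. Promoter windows are from RefSeq (GRCm38.p6), and exon structures from GENCODE vM21. Alternatives were another pseudocount, filters, scalings, no trend, a fit blocked by replicate number, and omission of each library in turn.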

Additional observations from a re-analysis of the deposited data

How the results depend on the processing

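The calls of Gas1, Boc, Cdon and Smo as genes held under all 13 alternatives, with log2 fold changes of 1.47 to 1.51, 1.71 to 1.88, 0.36 to 0.46 and 0.42 to 0.46. Gli2 was -0.01 and changed sign at values near 0: 0.02 with quantile normalization, 0.00 with median-ratio scaling and -0.03 to 0.01 with a library left out. The Gli2 transcript was likewise 0.00 with quantile normalization, 0.01 with median-ratio scaling and -0.02 to 0.02 with a library left out. A filter at a mean of 5 FPKM left 7378 genes to test, of which 3111 changed, in place of 4976 of 11584. In the lists it left 1 ligand and release gene to test, which did not change, and no GDNF relative. Of 5 tested targets 4 changed, of 19 tested cilium genes 5 and of 4 tested growth arrest genes 1. The number of changed GDNF relatives was 2 with quantile normalization and 2 with median-ratio scaling. Leaving out 1 library, which gives fewer samples, gave 1468 to 2341 changed transcripts in place of 2724, 3 to 4 of them members'. Changed genes then numbered 3826 to 4798, in place of 4976. Among them were 1 to 2 genes of the ligand list, 10 to 17 of the cilium list and 1 to 2 of the GDNF list. Libraries with the same replicate number did not deviate together (r = -0.064, -0.136 and -0.021). With deviations taken from the mean of only 3 libraries per group, this cannot show whether the numbers pair them. With the replicate block, 715 transcripts changed, 2 of them members' (the Smo transcript had a limma adjusted p of 0.0692 and that of Cdon 0.156). Of 11584 tested genes 3844 changed in this fit, in place of 4976, and of 43 cilium genes 11. FPKM without counts gives no depth, which limits most what can be said of Ptch1 and Gli2.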
